A study of Mus musculus with 4 samples.

Results

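The genes examined here are 39 genes of the lysosome and of autophagy, and the measurement is chromatin accessibility by ATAC-seq, in which a transposase inserts sequencing adapters into open DNA. Every peak that overlapped one of these genes, or the 5 kb upstream of its start in the GENCODE vM21 annotation, was taken as a member peak. All 39 genes had at least 1 such peak, which gave 177 member peaks of the 117282 in the table. No peak was shared between 2 of the genes. The cells were mesenchymal stem cells (MSCs) of mice aged 18 to 22 months (old, n = 2 samples) or 3 to 5 months (young, n = 2 samples), and all were grown at 2% O2. The labels name neither strain nor sex, nor how many animals or cultures stand behind a sample, so the spread between the 2 samples of a group may be technical.

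Lysosomes are acidic organelles in which proteases, glycosidases, lipases and sulfatases break down material that arrives by endocytosis or autophagy. A proton pump, the V-ATPase, acidifies them, and membrane proteins carry the products back to the cytosol. In autophagy, cytoplasm is enclosed by a double membrane that carries lipidated LC3 and then fuses with the lysosome. Many genes of this network share a promoter element with the core CACGTG, often extended to TCACGTGA, which TFEB and other factors of the MITF family bind.

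RefSeq promoters (GRCm38.p6, from 250 bases before to 50 bases after a start) were at hand for 33 of the 39 genes, as 38 promoters. Those of Asah1, Atp6v1b2, Atp6v1h, Becn1, Ctsb and Npc1 were not among them. CACGTG was found in 12 of the 38 promoters, or 31.6%, against 7.15% of all 32851 RefSeq mouse promoters. Its extended form TCACGTGA, which contains CACGTG, was found in 5 of the 38, or 13.2%, against 0.974% of all promoters. Both words read the same on either strand. The 12 promoters with CACGTG belonged to Atg5, Atg7, Atp6v0d1, Atp6v1a, Ctsa, Ctsd, Ctsl, Gaa, Lamp1, Mcoln1, Naglu and Sgsh, and that of Lamp1 held 4 copies. Of these 12 promoters, 11 overlapped a peak, and the exception was the RefSeq promoter of Atg7, at an internal start of the gene. The 5 promoters with TCACGTGA, which lay whole inside a peak in each case, are shown 5′ to 3′ with that element in capitals because they are the clearest examples of the network's shared element among the accessible promoters:
Atp6v1a, chr16:44139210-44139509, minus strand: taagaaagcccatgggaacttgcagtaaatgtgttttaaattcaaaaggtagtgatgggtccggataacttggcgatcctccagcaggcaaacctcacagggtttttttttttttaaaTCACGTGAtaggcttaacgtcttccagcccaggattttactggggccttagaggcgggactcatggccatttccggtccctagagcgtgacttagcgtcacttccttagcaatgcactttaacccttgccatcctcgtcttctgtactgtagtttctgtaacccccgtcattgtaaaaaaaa
Atp6v0d1, chr8:105566015-105566314, minus strand: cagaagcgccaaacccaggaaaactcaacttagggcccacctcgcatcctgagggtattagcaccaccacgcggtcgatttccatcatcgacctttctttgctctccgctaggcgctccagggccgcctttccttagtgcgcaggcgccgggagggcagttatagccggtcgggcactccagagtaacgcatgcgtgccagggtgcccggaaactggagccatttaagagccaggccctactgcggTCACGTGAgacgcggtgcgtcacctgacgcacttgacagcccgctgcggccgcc
Ctsd, chr7:142387778-142388077, minus strand: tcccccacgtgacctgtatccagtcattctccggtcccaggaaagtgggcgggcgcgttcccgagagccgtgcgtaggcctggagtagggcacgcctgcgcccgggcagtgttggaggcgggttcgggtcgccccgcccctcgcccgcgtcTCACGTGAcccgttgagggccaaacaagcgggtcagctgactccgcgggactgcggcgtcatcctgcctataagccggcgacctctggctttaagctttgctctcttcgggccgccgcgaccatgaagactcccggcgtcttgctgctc
Mcoln1, chr8:3500269-3500568, plus strand: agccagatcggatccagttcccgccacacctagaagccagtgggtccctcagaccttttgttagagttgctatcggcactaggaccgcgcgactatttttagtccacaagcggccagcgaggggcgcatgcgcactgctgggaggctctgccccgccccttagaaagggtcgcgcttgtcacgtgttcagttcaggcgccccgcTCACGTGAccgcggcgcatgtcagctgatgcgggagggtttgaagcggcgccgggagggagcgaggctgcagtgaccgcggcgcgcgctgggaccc
Ctsa, chr2:164833523-164833822, plus strand: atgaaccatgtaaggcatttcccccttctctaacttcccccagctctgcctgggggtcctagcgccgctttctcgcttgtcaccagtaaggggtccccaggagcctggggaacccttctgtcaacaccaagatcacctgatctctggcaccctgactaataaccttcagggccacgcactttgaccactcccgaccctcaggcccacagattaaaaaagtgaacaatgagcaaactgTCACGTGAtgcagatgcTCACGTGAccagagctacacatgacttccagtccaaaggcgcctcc
In Atp6v0d1 the element began 4 bases before the annotated start, in Mcoln1 46, in Ctsd 99 and in Atp6v1a 132, while Ctsa held 2 copies, the first beginning 13 bases before the start.

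The 4 libraries held 12527509 to 18493628 counts in peaks, as recovered from the deposited values. The share of a library's counts that fell in peaks was 43.8% and 50.3% in the old samples and 57.5% and 62.9% in the young samples. Values below are counts per 10000000 library counts, divided by a scaling factor per sample (the median ratio to the 4-sample geometric mean, 0.817 and 1.01 for the old and 1.07 and 1.15 for the young samples), and they are called scaled values. This scaling sets the median peak to no difference: the median log2 fold change (old minus young) of all peaks was 0.0011 after scaling and -0.27 on the deposited values. The member peaks moved with it, with a median of 0.02 after scaling and -0.25 as deposited. A direction given below is therefore relative to the median peak. An alternative used below scales the samples to equal totals over all peaks, mitochondrial ones included. Mitochondrial peaks held 15.7% and 6.52% of the peak sum in the old samples and 13.5% and 14.5% in the young samples. Their part in that alternative was not tested. The promoter peaks of the stromal marker genes ranged widely in level. Col1a2, which encodes a chain of type I collagen, had scaled values of 1161 and 1277 in old and 997 and 1113 in young samples. Pdgfra had 355 and 422 in old and 342 and 295 in young samples. At the low end, the promoter peak of Eng, an endoglin gene, had 18.8 and 22.1 in old and 24.1 and 14.2 in young samples, and that of Lepr, the leptin receptor gene, had 7.28 and 6.67 in old and 6.93 and 6.20 in young samples, beside a median of 81.2 over all promoter peaks. All 13 mesenchymal stromal markers had a promoter peak, whereas 5 of 12 macrophage and blood markers had none, among them Ptprc and Adgre1. In cultured cells of this kind, fewer cells with an open site and less opening per cell cannot be told apart.

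The promoters of lysosome and autophagy genes were open in both age groups and differed little between them. Of the 39 genes, 38 had a promoter peak, defined as a peak within 1 kb of a protein-coding start of the gene. The gene without one was Ctss, the protease cathepsin S of antigen-presenting cells, whose 3 peaks lay upstream, in an intron and over an exon. Where a gene had several promoter peaks, the one with the largest mean value is described. Per kilobase of peak, all 45 promoter peaks of the members had a median scaled value of 28.7, beside 26.9 for all 16213 promoter peaks of the table. The 38 described here, picked as the strongest of their genes, had 33.6. Lipa (79.4 per kb), Asah1 (67.7) and Atg5 (66.4) had the densest promoter peaks, and Atg7 (16.05), Manba (16.3) and Gaa (19.7) the least dense. The log2 fold change (old minus young) of these 38 peaks ran from -0.53 to 0.30, with 34 of them within 0.3 of no difference, and the lowest adjusted p was 0.145 (limma, adjusted over all 117282 peaks). Larger differences were among the weaker promoter peaks not picked, at the annotated start of Atp6v1h (-0.71, adjusted p = 0.107) and inside Tfeb (-0.58). Both were lower in both old samples, while another weaker Tfeb promoter peak was higher in both after scaling.

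**Figure D1:**
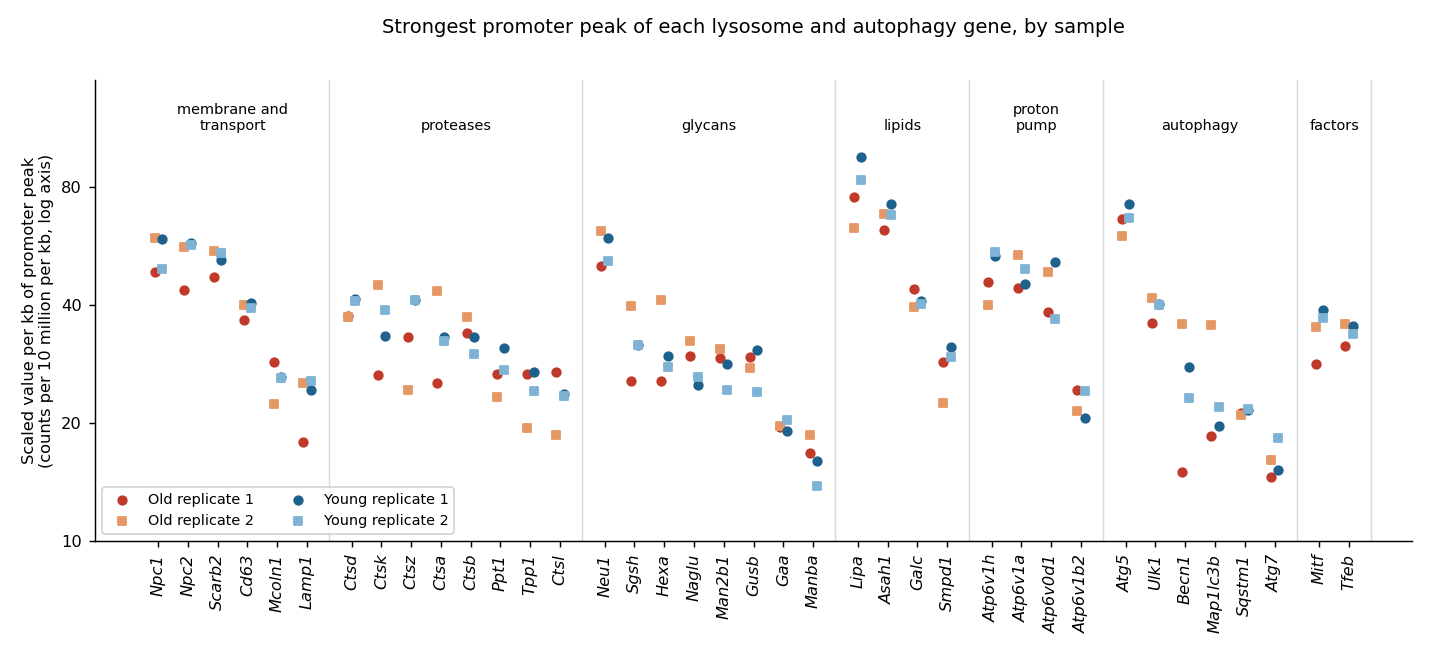
Scaled value per kilobase (counts per 10000000 per kb, log axis) of the strongest promoter peak of each gene with one, with a point for each of the 4 samples, grouped by role and ordered by mean density. Old and young points interleave for 24 of the 38 genes, while for 10 both old points lie below both young points and for 4 both lie above. Over all promoter peaks these arrangements held for 25.7% and 15.7%.

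Among the lysosomal membrane proteins, Lamp1 encodes a heavily glycosylated protein that lines the organelle. Its promoter peak had scaled values of 46.7 and 65.8 in old and 63.0 and 66.4 in young samples. The first old sample was low and the second reached the young range, so the groups overlapped. Scarb2 encodes LIMP-2, the receptor that delivers glucocerebrosidase, and its promoter peak had 137 and 159 in old and 151 and 157 in young samples. Cd63, a tetraspanin of late endosomes, had 209 and 228 in old and 231 and 225 in young samples. The NPC1 and NPC2 proteins hand cholesterol out of the lysosome in turn. The Npc1 promoter peak had 146 and 178 in old and 177 and 149 in young samples, and thus no separation by age. That of Npc2, which also lay within 1 kb of the start of Isca2, had 197 and 253 in old and 259 and 256 in young samples, both old values below both young ones by a margin that scaling to equal totals removed (log2 fold change -0.21 ± 0.15 SE, adjusted p = 0.519). Mcoln1 encodes TRPML1, the calcium channel of the lysosome, and its promoter peak had 117 and 91.6 in old and 108 and 107 in young samples. All 6 promoter peaks of this group had a log2 fold change below 0 after scaling, from -0.22 to -0.01, where scaling to equal totals put 4 of them above 0, and none passed the test.

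The proteases included the lowest log2 fold change among the 38 promoter peaks, that of Ctsz, which encodes the carboxypeptidase cathepsin Z. Its promoter peak (chr2:174437301-174440500) had scaled values of 106 and 78.0 in old and 132 and 132 in young samples. Both old samples were below both young ones, with a log2 fold change of -0.53 ± 0.18 (SE) that did not pass the test (adjusted p = 0.145, limma). Without old replicate 2 it was -0.31. Without old replicate 1 the same peak gave -0.75 with an adjusted p of 1.28e-05, so its call rests on which old library enters, and its adjusted p ranged up to 0.790 over the alternatives, without young replicate 2. The aspartic protease gene Ctsd had 105 and 105 in old and 116 and 115 in young samples. Ctsl, a cysteine protease gene whose promoter peak of 13.8 kb covered the whole gene, had 372 and 257 in old and 328 and 323 in young samples. Here the 2 old samples lay on either side of the young pair. Ctsb, another cysteine protease gene, had 98.5 and 108 in old and 96.4 and 86.8 in young samples, with both old values above the young ones after scaling but not as deposited. The promoter peak of Ctsk, the collagen-degrading cathepsin K known from osteoclasts, had 77.1 and 131 in old and 96.7 and 112 in young samples, an old spread wider than any age difference. Ctsa, a serine carboxypeptidase gene whose product also protects a beta-galactosidase and a neuraminidase, had 71.1 and 122 in old and 93.1 and 90.6 in young samples, again with the old samples on both sides. Tpp1, a tripeptidyl peptidase gene, had 93.3 and 68.0 in old and 94.4 and 84.7 in young samples. Ppt1 encodes a thioesterase that removes palmitate from proteins, and its promoter peak had 47.9 and 41.9 in old and 56.1 and 49.3 in young samples. The old values lay below the young ones, with a gap smaller than the spread within either group (log2 fold change -0.23 ± 0.21, adjusted p = 0.627).

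Among the enzymes of glycan breakdown, 7 of 8 promoter peaks had a log2 fold change above 0 after scaling, where all 8 were below 0 as deposited, and none passed the test. Their median was 0.12 against -0.03 for all promoter peaks. Naglu, an enzyme of heparan sulfate breakdown, had promoter values of 44.5 and 48.5 in old and 37.6 and 39.3 in young samples. Manba, a beta-mannosidase gene, had 21.8 and 24.3 in old and 20.8 and 18.0 in young samples. Man2b1, an alpha-mannosidase gene, had 135 and 142 in old and 130 and 112 in young samples. In these 3 genes both old samples were above both young ones after scaling and overlapped them as deposited, with log2 fold changes of 0.27 ± 0.21, 0.24 ± 0.25 and 0.19 ± 0.16 (SE). The Man2b1 peak also lay at the starts of Wdr83 and Wdr83os. Hexa, the alpha subunit gene of beta-hexosaminidase, had 97.2 and 157 in old and 113 and 106 in young samples. Its mean difference came from the second old sample, since the first was the lowest of the 4. The same held for Sgsh, a sulfatase gene of heparan sulfate breakdown, with 51.4 and 79.8 in old and 63.4 and 63.2 in young samples. Gaa, which encodes the glycogen-degrading acid alpha-glucosidase, had 62.5 and 62.8 in old and 61.1 and 65.3 in young samples. Gusb, a beta-glucuronidase gene, had 141 and 133 in old and 148 and 115 in young samples, and Neu1, a sialidase gene, had 75.3 and 92.5 in old and 89.1 and 77.7 in young samples. Gaa, Gusb and Neu1 showed full overlap of the age groups. On chromosome 11, where Gaa, Naglu and Sgsh lie with Sqstm1 and Becn1, the median of all peaks was 0.16 (log2) higher in old replicate 2 than in young replicate 1, against 0.0032 over all peaks. Against young replicate 2 it was 0.20 higher, and old replicate 1 gave -0.006 and 0.03 against young replicates 1 and 2. The 10 peaks of these 5 genes had a median log2 fold change of 0.20, beside 0.10 for all peaks of the chromosome and 0.02 for the other member peaks. The part of the chromosome's shift in the values of these genes was not tested.

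Per kilobase, the promoters of the lipid-degrading enzymes had a median of 54.5, the highest of the 7 groups, and 3 of 4 had a log2 fold change below 0 after scaling, as did all 4 on the deposited values. Lipa encodes lysosomal acid lipase, which frees cholesterol and fatty acids from lipoproteins. Its promoter peak (chr19:34526101-34527900) had scaled values of 136 and 113 in old and 172 and 151 in young samples. Both old samples were below both young ones, and the log2 fold change of -0.37 ± 0.16 did not pass the test (adjusted p = 0.263). Smpd1, the acid sphingomyelinase gene, had 146 and 115 in old and 160 and 150 in young samples. It was also lower in both old samples, except under quantile normalization, with most of the difference in the second. The acid ceramidase gene Asah1 had 161 and 178 in old and 188 and 177 in young samples, and Galc, the galactosylceramidase gene, had 128 and 115 in old and 119 and 117 in young samples. In neither of these did the groups separate.

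The V-ATPase is built from a membrane sector (V0) and a cytosolic sector (V1) that hydrolyses ATP. Atp6v1h, a regulatory V1 subunit gene, had 2 promoter peaks, and both were lower in both old samples. Over the annotated start of the gene (chr1:5069401-5071000, also at a start of Rgs20) the scaled values were 38.1 and 31.2 in old and 51.5 and 62.9 in young samples. The difference was -0.71 ± 0.22 on the log2 scale and did not pass the test (adjusted p = 0.107). At an internal start (chr1:5082401-5085000) the values were 119 and 104 in old and 139 and 142 in young samples, a log2 fold change of -0.33 ± 0.16. The other 3 subunit genes showed no such pattern. Atp6v1a, the catalytic V1 subunit gene, had 278 and 338 in old and 285 and 311 in young samples. Atp6v1b2, which encodes the other V1 subunit of the catalytic hexamer, had 141 and 125 in old and 119 and 140 in young samples. Atp6v0d1, a V0 subunit gene, had 104 and 131 in old and 139 and 99.8 in young samples. These 3 peaks also lay at the starts of Naa50, Slc18a1 and Agrp, respectively.

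Of the autophagy genes, Ulk1 encodes the kinase that starts the process and Becn1 a subunit of the lipid kinase complex that follows it. The Ulk1 promoter peak had scaled values of 158 and 184 in old and 177 and 177 in young samples. That of Becn1 had 20.98 and 50.1 in old and 38.9 and 32.5 in young samples, so the 2 old samples differed from each other more than the age groups did. Atg5 and Atg7 belong to the conjugation system that attaches LC3 to lipid, with Atg7 as its activating enzyme. The Atg5 promoter peak had 205 and 187 in old and 224 and 207 in young samples, and both old values lay just below the young ones, which scaling to equal totals made overlap. That of Atg7 had 36.4 and 40.3 in old and 38.0 and 45.8 in young samples, with overlap. Map1lc3b, an LC3 gene, gave the highest log2 fold change among the 38 promoter peaks, 0.30 ± 0.24, from values of 55.7 and 107 in old and 59.1 and 66.1 in young samples. Only old replicate 2 stood above the young samples there. Without old replicate 1 the peak gave 0.77 with an adjusted p of 0.00017, and with both old samples its adjusted p was 0.573 and, over the alternatives, up to 0.981 on the deposited values. Sqstm1 encodes the cargo receptor p62, and its promoter peak of 19.9 kb, which reached the start of Mgat4b, had 421 and 417 in old and 430 and 433 in young samples, a gap that other scalings closed.

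Tfeb and Mitf encode the transcription factors of the network. The strongest Tfeb promoter peak had scaled values of 195 and 222 in old and 219 and 209 in young samples, and the promoter peak of Mitf had 87.8 and 109 in old and 121 and 115 in young samples. Both old values of Mitf were below the young ones, except with equal totals (log2 fold change -0.26 ± 0.17, adjusted p = 0.475), whereas those of Tfeb overlapped. Both genes have several starts. Of the 11 protein-coding starts of Tfeb in the annotation, 9 lay within 1 kb of a peak, and the gene had 6 promoter peaks. The 3 peaks over its starts 17.3 to 32.2 kb into the gene had mean values of 12.8 to 39.6, against 211 over the first starts. Of the 6 starts of Mitf, the first 2, which are 6 bp apart, lay under a peak, and the 4 located 123 to 185 kb further into the gene had no peak within 1 kb. The Mitf locus was nonetheless rich in peaks, with 23 of its 24 in introns. The highest of them, 11.4 kb into the gene (chr6:97815301-97821700), had 262 and 244 in old and 263 and 289 in young samples. Over its 24 peaks the values in old were below the young ones in 4 and above in 7, beside 24.2% and 23.2% of all peaks, and none passed the test. The 2 largest differences of Mitf with at least 10 counts were at chr6:97961901-97962800, 155 kb from the start, with 8.56 and 12.1 in old and 4.95 and 5.61 in young samples (log2 fold change 0.84 ± 0.34, adjusted p = 0.227), and at chr6:97873001-97873800, with 20.98 and 20.93 in old and 11.9 and 13.6 in young samples (0.68 ± 0.27, adjusted p = 0.208).

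**Figure D2:**
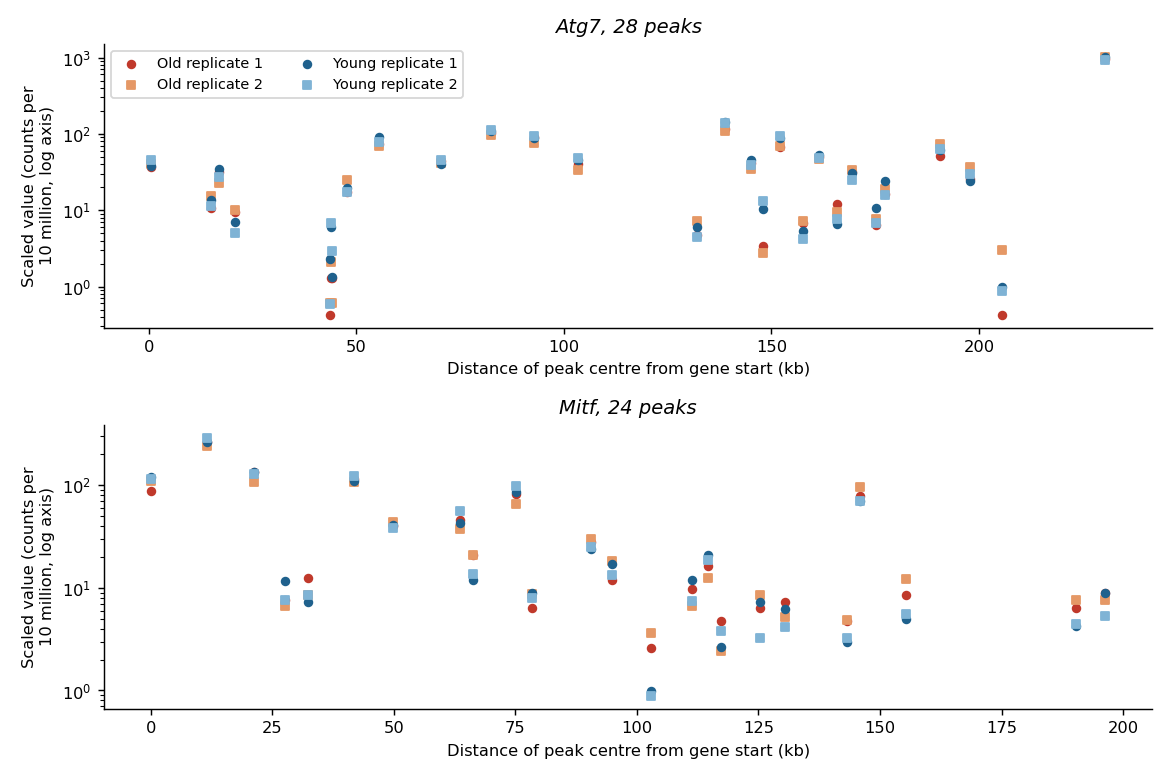
Scaled values (counts per 10000000, log axis) of the 28 Atg7 peaks and the 24 Mitf peaks in each of the 4 samples, against the distance of the peak centre from the gene's start in kb. Most peaks hold the 4 points close together, and the Atg7 peak 148 kb from the start shows both old samples (3.42 and 2.73) well below both young samples (10.2 and 13.3).

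Away from promoters, differences were larger and lay mostly at weak peaks inside introns. No member peak passed an adjusted p under 0.01 in either direction, where 0.0307% of all peaks were called lower and 0.0256% higher in old. At an adjusted p under 0.05, 1 of 177 member peaks was called lower and 0 higher, against 0.771% and 0.351% of all peaks. That peak lay in an intron of Atg7, 148 kb from the start of the gene (chr6:114790601-114791400). Its scaled values were 3.42 and 2.73 in old and 10.2 and 13.3 in young samples, from 8 to 45 counts a sample. Both old samples were low, with a log2 fold change of -1.64 ± 0.36 (SE) and an adjusted p of 0.0341. Over 12 alternative fits the adjusted p was under 0.05 in 8 and ranged from 0.0004 without old replicate 1 to 0.465 without young replicate 2, and it was 0.186 without young replicate 1. A weaker Atg7 intron peak at chr6:114686901-114687300 had 1.28 and 2.12 in old and 5.94 and 6.79 in young samples (-1.46 ± 0.42, adjusted p = 0.0858). It abutted a narrow peak on either side and held 3 counts in old replicate 1, which is at the limit of what these libraries can show. Over the 28 peaks of Atg7, these 2 included, the old values were below the young ones in 8 and above in 4, beside 24.2% and 23.2% of all peaks. An abutting narrow peak, chr6:114687301-114687400, with 2 to 10 counts a sample, is among the 8, and its groups overlapped under quantile normalization. Of the peaks next to the called one, that at chr6:114793801-114796400 was also lower in both old samples, with 67.2 and 68.9 in old and 88.1 and 94.2 in young samples (-0.42, adjusted p = 0.257), as was a further one at chr6:114780301-114783600 (-0.32, adjusted p = 0.336), and the neighbour at chr6:114787101-114789300 had -0.14 (adjusted p = 0.803). The largest Atg7 peak spanned 49.2 kb, of which 37.4 kb lay past the end of the gene, and had 959 and 1014 in old and 1020 and 929 in young samples.

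The member peak with the next lowest adjusted p was in an intron of Galc, 3.71 kb into the gene (chr12:98255301-98256200). Its scaled values were 16.3 and 20.02 in old and 6.60 and 7.68 in young samples. Both old samples were higher, by 1.23 ± 0.30 on the log2 scale, and the adjusted p of 0.0503 was just above 0.05. The other member peaks just outside that threshold are given beside it here. An exon peak of Sgsh (chr11:119344901-119345700) had 8.99 and 11.2 in old and 2.97 and 3.54 in young samples (1.38 ± 0.36, adjusted p = 0.0631). An intron peak of Atp6v1h (chr1:5076001-5076900), between its 2 promoter peaks, had 8.99 and 11.8 in old and 24.1 and 20.1 in young samples (-1.02 ± 0.28, adjusted p = 0.0742). All 3 peaks of Atp6v1h in the first 15 kb of the gene were thus lower in both old samples. Its peaks 58.4 and 64.3 kb from the start had log2 fold changes of 0.19 and 0.14, and their age groups overlapped. Summed over the gene, the age groups overlapped as well (-0.28 ± 0.15, adjusted p = 0.621, limma). An intron peak of Ppt1 (chr4:122837701-122839000) had 21.8 and 25.5 in old and 40.3 and 44.6 in young samples (-0.82 ± 0.23, adjusted p = 0.0784).

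To show the sites where age differences were largest for their spread, the central 300 bases of the Atg7 and Galc intron peaks are given from GRCm38.p6, 5′ to 3′ on the strand of the gene, with any CACGTG or TGANTCA in capitals:
Atg7, chr6:114790851-114791150, plus strand: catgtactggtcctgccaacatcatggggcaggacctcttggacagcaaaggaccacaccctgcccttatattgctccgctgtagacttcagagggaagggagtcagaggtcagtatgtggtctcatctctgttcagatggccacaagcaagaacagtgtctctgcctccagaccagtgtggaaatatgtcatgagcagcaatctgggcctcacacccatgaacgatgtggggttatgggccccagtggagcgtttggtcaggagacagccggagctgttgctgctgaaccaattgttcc
Galc, chr12:98255601-98255900, minus strand: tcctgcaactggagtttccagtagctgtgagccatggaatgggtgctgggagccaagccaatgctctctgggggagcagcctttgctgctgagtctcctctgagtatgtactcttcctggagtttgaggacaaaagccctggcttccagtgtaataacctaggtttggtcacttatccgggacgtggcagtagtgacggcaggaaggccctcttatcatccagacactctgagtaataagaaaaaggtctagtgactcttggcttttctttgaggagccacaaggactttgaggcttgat
Neither window held CACGTG, and neither held TGANTCA, the site of AP-1 factors, on either strand. Among all 101069 peaks away from promoters, 4.12% held CACGTG and 23.7% held TGANTCA in their central 300 bases. Of the 128 member peaks in that set, 7 (5.47%) held CACGTG and 25 (19.5%) held TGANTCA, and 8 of the latter were in Mitf. The only member peak away from promoters with TCACGTGA was also in Mitf.

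Further differences that separated the groups were at low peaks, and none passed the test. Among those higher in both old samples, an intron peak of Ctss (chr3:95548101-95548600) had 7.28 and 8.80 in old and 2.97 and 4.72 in young samples (0.92 ± 0.37, adjusted p = 0.225). An intron peak of Scarb2 (chr5:92472601-92473500) had 11.6 and 15.5 in old and 6.27 and 7.09 in young samples (0.91 ± 0.31, adjusted p = 0.154). A peak 4.71 kb upstream of Ctsk (chr3:95494301-95494800) had 4.28 and 7.89 in old and 1.98 and 3.84 in young samples (0.85 ± 0.43). The Ctsk value was 0.48 without old replicate 2 and 0.50 without young replicate 1, and its age groups overlapped as deposited. Both cathepsins are known from bone marrow lineage cells, so their values stand beside those of the marker lists. The summed promoter values of the macrophage and blood markers, 7 of 12 with a promoter peak, were 531 and 742 in old and 663 and 596 in young samples. Most of each sum came from the single peak of Cd68, a lysosomal glycoprotein gene of macrophages, with 324 and 476 in old and 456 and 397 in young samples. Counting all 27 peaks of these marker genes, both old samples were above both young ones in 10 and below in 2, beside 23.2% and 24.2% of all peaks. In the 46 peaks of the mesenchymal stromal markers these counts were 17 and 8. They were 7 and 6 in the 27 endothelial peaks and 0 and 1 in the 2 erythroid peaks. The promoter sums of the osteoclast markers, 3 of 6 with one, were 125 and 127 in old and 123 and 107 in young samples, and of their 11 peaks 2 were above and 0 below in this sense. The endothelial sums, 3 of 4 with one, were 76.2 and 78.0 in old and 87.5 and 84.7 in young samples, and the erythroid sums, 2 of 3 with one, were 81.8 and 83.4 in old and 99.995 and 80.9 in young samples. The part of such cells in the cathepsin peaks was not tested. An exon peak of Becn1 (chr11:101287201-101288000) had 13.7 and 19.4 in old and 6.93 and 11.5 in young samples (0.80 ± 0.32). It gave 0.47 without young replicate 1, and its age groups overlapped as deposited. An exon peak of Ulk1 (chr5:110786001-110786900) had 8.99 and 9.10 in old and 5.28 and 4.43 in young samples (0.78 ± 0.34). Among those lower in both old samples, an internal promoter peak of Tfeb (chr17:47784201-47784900) had 5.14 and 3.34 in old and 6.93 and 6.50 in young samples (-0.58 ± 0.37), which became -0.33 without old replicate 2 and -0.83 without old replicate 1. A peak 4.86 kb upstream of Ctsb (chr14:63117201-63118000) had 8.13 and 9.40 in old and 13.9 and 13.0 in young samples (-0.56 ± 0.30).

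**Figure D3:**
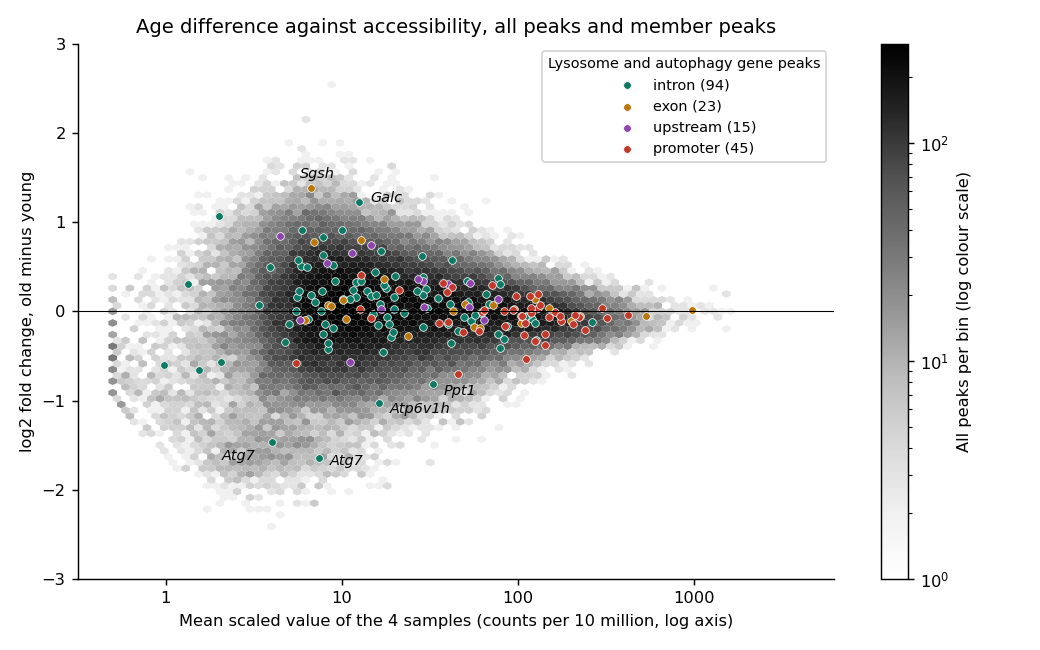
Log2 fold change (old minus young) of each peak against its mean scaled value (counts per 10000000, log axis), with all 117282 peaks as grey bins (darker for more peaks, the weakest drawn at the left edge) and the 177 member peaks as points coloured by position. Named points have an adjusted p under 0.1. Most promoter peaks lie at higher means and close to 0, while weaker ones reach -0.71 at the Atp6v1h start and -0.58 inside Tfeb.

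The member peaks with separate age groups were counted beside those of the whole table. Both old samples were below both young ones in 28 of 177 member peaks (15.8%), against 24.2% of all peaks. Both were above in 37 (20.9%), against 23.2% of all peaks. At the promoters, 12 of 45 member peaks were lower in this sense (26.7%), against 25.7% of all promoter peaks, and 5 of 45 were higher (11.1%), against 15.7%. An unadjusted p under 0.05 was reached by 8 member peaks lower in old (4.52%), against 8.87% of all peaks, and by 12 higher in old (6.78%), against 7.49%. With 2 samples a group, an exact permutation test of a single peak cannot give a two-sided p below 0.333. The spread of the log2 fold changes was wider away from promoters, with a standard deviation of 0.45 over the 94 intron peaks and 0.23 over the 45 promoter peaks. The same was seen over all peaks, with 0.50 over intronic and 0.30 over promoter peaks. The median log2 fold change was -0.05 over member promoter peaks, 0.08 over intron peaks, 0.02 over exon peaks and 0.31 over the 15 upstream peaks, of which 12 were above 0 after scaling and 8 as deposited. Over all promoter, intronic and exonic peaks the medians were -0.03, 0.03 and 0.11. Of the 15 upstream peaks, both old samples were above both young ones in 4 and below in 1. No comparable set of all upstream peaks was formed.

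**Figure D4:**
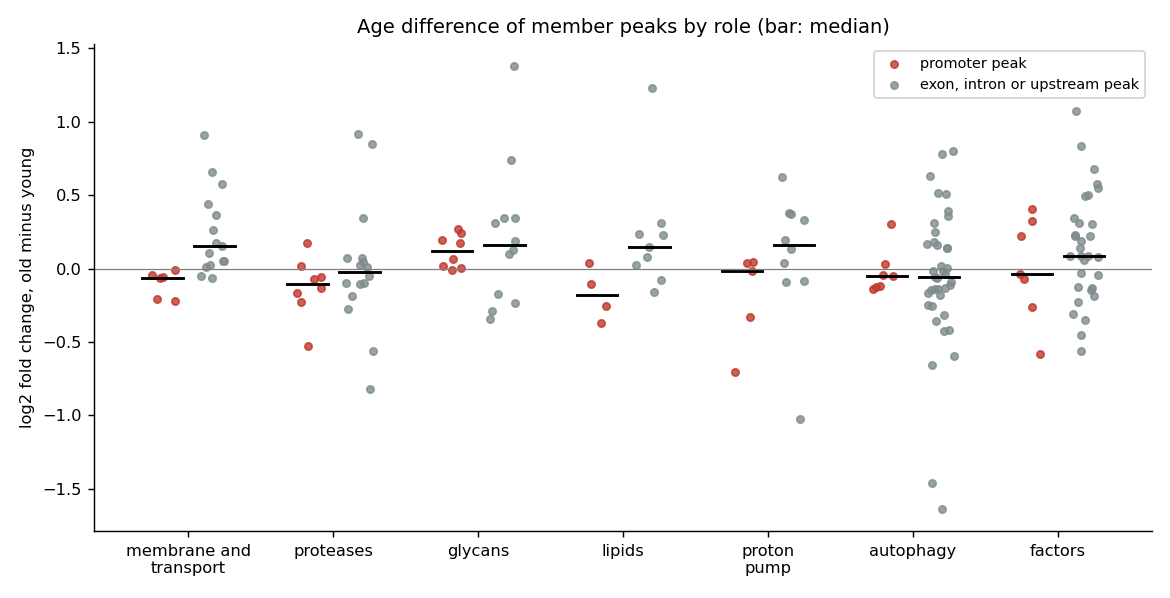
Log2 fold change (old minus young) of the member peaks by role of the gene, with promoter peaks in red, all other member peaks in grey and a black bar at each median. Points scatter around 0 in all 7 groups, and the lowest, at -1.64 and -1.46, are the Atg7 intron peaks.

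The 2 old samples differed from each other at the promoters. The median of the member promoter peaks was -0.16 and -0.10 (log2) in old replicate 1 against young replicates 1 and 2, and 0.01 and 0.02 in old replicate 2. Over all 16213 promoter peaks the same medians were -0.10 and -0.05 in old replicate 1, and -0.005 and 0.06 in old replicate 2. The difference between the old samples was thus not particular to the members. Old replicate 1 was the library with the smallest share of counts in peaks.

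**Figure D5:**
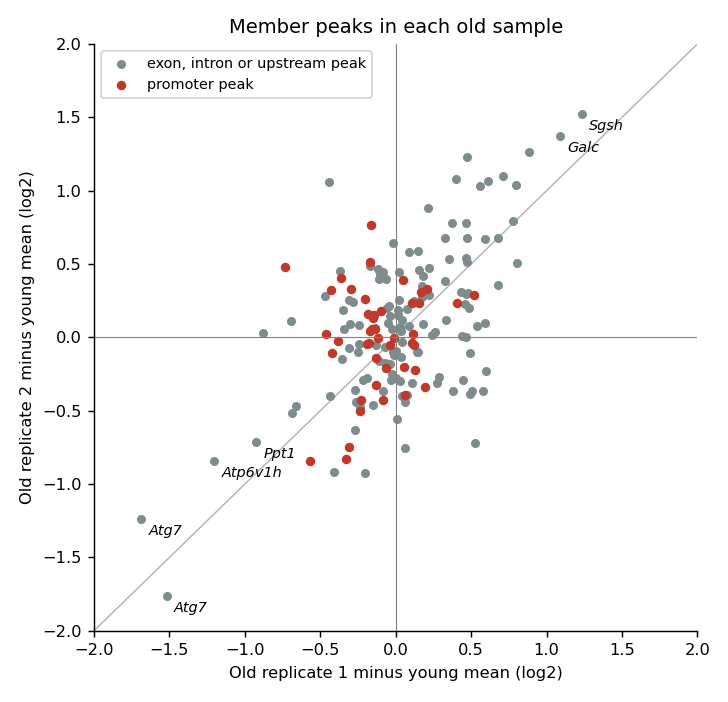
Log2 difference of each member peak from the young mean, in old replicate 1 (horizontal) and old replicate 2 (vertical), with promoter peaks in red and the diagonal in grey. Both axes share the young mean. Peaks named for an adjusted p under 0.1 lie near the diagonal and far from 0 in both old samples. Their selection on these same values favours that position. Most promoter peaks lie near the centre.

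Summed over all peaks of a gene, none of the 39 genes passed the test. At an adjusted p under 0.01, 0 of the 39 were called in either direction, against 0% of the 17308 genes with a peak called lower and 0.0116% called higher. None of the 39 had an unadjusted p under 0.05, against 8.83% of all genes. The log2 fold changes of the summed values ran from -0.36 to 0.38, with 17 genes below 0 and 22 above. Ctsz was lowest, with sums of 184 and 128 in old and 188 and 208 in young samples (-0.36 ± 0.18, adjusted p = 0.580). Naglu was highest, with 60.4 and 69.6 in old and 53.1 and 46.0 in young samples (0.38 ± 0.19, adjusted p = 0.587). The sums weigh promoters and other peaks together, and the promoter's part of the sum ranged from 2.75% in Atg7 and 9.68% in Manba to all of it in Ctsa, Gusb, Man2b1, Neu1 and Atp6v1b2, which had a single peak.

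A list of 84 other genes of the same pathways, all with a promoter peak, was examined in the same way. Their 329 peaks had a median log2 fold change of 0.03, and 0 of them passed an adjusted p under 0.01. At 0.05, 1 peak was lower and 0 higher: an intron peak of Gnptab, which encodes a subunit of the enzyme that marks hydrolases with mannose 6-phosphate (chr10:88403001-88403600), had 2.57 and 3.94 in old and 11.2 and 12.1 in young samples (-1.59 ± 0.36, adjusted p = 0.0382). Both old samples were below both young ones in 20.97% of these peaks and above in 24.6%. Split by role, the past-threshold counts were 1 of 113 peaks at 30 further lysosomal genes, 0 of 40 at 13 V-ATPase genes, 0 of 115 at 28 autophagy genes and 0 of 61 at 13 genes of lysosomal control, such as mTORC1 regulators and related factors. None of the 84 passed on summed values. The 3 lowest were Tfec, a factor of the MITF family (-0.48 ± 0.19), Optn, a cargo receptor of autophagy (-0.44 ± 0.16), and Gla, the alpha-galactosidase A gene (-0.37 ± 0.17). The 3 highest were Atp6v0a1 (0.41 ± 0.16) and Atp6v0e (0.39 ± 0.21), both V0 subunit genes, and Cln3 (0.39 ± 0.18), a lysosomal membrane protein gene. Their adjusted p-values were 0.509 or above. The 12 members with CACGTG in a RefSeq promoter had a median log2 fold change of -0.03 at their main promoter peak, and the 20 members with a RefSeq promoter and a promoter peak but without CACGTG had -0.05. For Atg7, among the 12, the main promoter peak lay apart from the RefSeq promoter with CACGTG, which overlapped no peak.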

How the data were processed

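Accessibility was measured by ATAC-seq in 4 MSC samples, 2 per age, grouped by the age in their labels. Per the labels, the reads were mapped to mm10 and the notes name Bowtie2 and Picard. The peak caller, the treatment of insertion sites and whether peaks were called on pooled samples are not given in the sources used here. The authors deposited 1 table of peaks with a score per sample, named RPKM in the file. These scores were whole multiples of 1 step per sample (tolerance 0.01 of a step, 100% of values), the same for narrow and wide peaks, so each was taken as counts per 10000000 library counts, not divided by length, and as 1 unit for all samples. A value of 3 counts, the floor of detection, was 0.921 to 1.06, and intervals were not formed. All 117282 peaks lay within the chromosomes of GRCm38.

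Values were divided by a median-ratio factor per sample, and log2(value + 1) was tested with limma 3.58.1 (R 4.3.3; moderated with trend and robust settings, Benjamini-Hochberg adjustment over all peaks, threshold 0.01). Fold changes are on that log2(value + 1) scale, which understates changes of low peaks. Values of a gene's peaks, from the gene body and 5 kb upstream, were summed before scaling and tested alike. The design foresaw a count test on recovered counts, but the decimal commas of the table kept it from being declared as counts, so limma-voom was run in its place and was chosen after seeing the data. On simulated data with 200 changed peaks among 117282, limma recovered 95% of 100 peaks changed by 2 on the log2 scale and 23% of those changed by 1 at an adjusted p under 0.01. The changed peaks were drawn from those with a mean scaled value above 5, so recovery at weaker peaks was not measured. All peaks shared a common dispersion (0.019) estimated from peaks above the median, and no added difference between the old samples was simulated.

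Named peaks were the promoter peak of every member, all member peaks with an adjusted p under 0.05 and, in each direction, the 8 largest differences with groups that did not overlap and at least 10 counts in the higher group. The Mitf peak at 97873001 and the other Atg7, Mitf and Tfeb peaks described were named after their values were seen. The same holds for the stretch of Atp6v1h described and the peaks beyond it. From the other pathway genes, those with an adjusted p under 0.05 or else the 3 largest sums in each direction were named. The genes, lists and tests were chosen with earlier results of these data known. Motif letters were searched with Python 3.11.15 and pysam 0.24.0.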

Additional observations from a re-analysis of the deposited data

How the results depend on the processing

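The count of member peaks past an adjusted p of 0.01 was 0 lower and 0 higher, and it became 1 lower on the values as deposited, 1 lower with the replicate number as a block and 1 lower at a threshold of 0.05, in each case the Atg7 intron peak at 114790601. Of all 117282 peaks, 1333 were called lower and 52 higher as deposited, and 904 and 412 at a threshold of 0.05. Leaving out 1 sample at a time gave 0 to 5 lower and 0 to 6 higher member peaks, and 0 to 5 lower and 0 to 2 higher genes on summed values. The calls came without old replicate 1 (5 lower peaks, at Atg7, Ctsl, Ctsz, Lipa and the Atp6v1h start, and 6 higher, at Galc, 2 of Hexa, Map1lc3b, Npc1 and Sgsh) and without old replicate 2 (3 lower, in introns of Atg7, Atp6v1h and Ppt1), fits in which the remaining old sample is assumed to vary like the young pair, and in which 6384 and 1228 of all peaks were called lower and 3925 and 461 higher. Without old replicate 1, 1887 of the 17308 genes were called lower and 1653 higher. Quantile normalization, equal totals, pseudocounts of 0.1 and 5, plain moderation, removal of the lowest 25% of peaks, other gene windows and limma-voom gave 0 member calls in either direction. Over the whole table, plain moderation called 0 peaks, removal of the lowest 25% called 7 lower and 8 higher, and equal totals 7 and 15. The pseudocounts gave 11 and 13 and 54 and 38, quantile normalization 53 and 42, and limma-voom 95 and 49. With so few calls, the absence of member calls says little about the members. Removal of the lowest 25% also took out the Atg7 intron peak at 114790601. In those fits that kept all peaks, 19 to 22 of the 177 member peaks had an unadjusted p under 0.05. Over all 117282 peaks these fits gave 18146 to 20616. The planned edgeR fit was not run, since the values could not be declared as counts. The median log2 fold change of member peaks, 0.02, was -0.25 as deposited and 0.087 with equal totals, and -0.02 to 0.07 with 1 sample left out. That of member promoter peaks, -0.05, was -0.33 as deposited and -0.13 (without old replicate 2) to 0.023 (without old replicate 1) with 1 sample left out. As deposited, 40.7% of member peaks were lower and 8.47% higher in both old samples, in place of 15.8% and 20.9%. The matching shares of all peaks were not formed on that scale, so no trait of the members is read from these shares. All peaks shifted down on it, with a median log2 fold change of -0.27. By sign alone, 77.4% of member peaks and 74.6% of all peaks had a log2 fold change below 0 as deposited. Deposited values carry the lower share of old libraries in peaks by construction. The labels number samples 1 and 2 in each group, but same-numbered samples did not deviate together (correlation of deviations -0.0993 over peaks), so the block compares numbers only; with it 907 peaks of the whole table were called lower and 362 higher. Peaks under about 10 counts a sample can show only large differences at this depth.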
